A study of Mus musculus with 3 samples.

Results

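Deletion alleles at a Cas9 cut in Tyr, the gene for the pigment enzyme tyrosinase, were described in tail genomic DNA of 3 male mice. Members were chosen by measured values, namely a deposited deleted base number above 0 and an inserted base number of 0. Aligned lines with the same gaps and the same deleted base number were merged whatever substitutions they carried. The rule gave 54 deletion alleles from 145 of the 2445 deposited lines, among 111 alleles in all once every line was merged in that way. They held 718 of 410950 reads. Because the rule read gaps and lengths, the shares of size, frame and repeat classes given here are descriptions without a test.

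The 3 animals formed a single group and are numbered mouse 1, 2 and 3. Per the labels, each came from crossing LSL-Cas9 mice, whose Cas9 gene is held silent by a stop cassette between loxP sites, to CAG-CreER mice, whose Cre recombinase is driven by the broadly active CAG promoter and enters the nucleus on exposure to tamoxifen. A transgenic cassette supplied the guide RNA against Tyr, per the series design, and its promoter was not given in the sources used here. Tamoxifen at 75 mg/kg was given through breast milk, and the labels do not say how much reached each animal or whether the mice shared a litter. No mouse without tamoxifen, Cas9 or guide was analysed here. The tail is a mixture of cell types, and a share of reads does not tell how many cells carried an allele.

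Cas9 cuts both strands of DNA close to a short motif called the PAM. The broken ends are mostly rejoined by end joining, which can trim a few bases at the break. Ends that have been resected further can pair through short direct repeats, known as microhomology, and the joined product then keeps a single copy of the repeat together with a loss of everything between the copies. A loss whose length is a multiple of 3 leaves the downstream reading frame in register within an exon, whereas other lengths shift it.

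Tyr (gene ID 22173) lies on chromosome 7, from 87424771 to 87493512 in the RefSeq annotation of GRCm38.p6. Alleles were deposited over a window of 40 bases, numbered here from 1 at its 5′ end. The guide covers window bases 4 to 23 and the PAM (CGG) bases 24 to 26, so that the expected cut falls between bases 20 and 21. The side before the cut is called PAM-distal here and the side after it PAM-proximal. The position of the window within the exons of Tyr was not analysed here. The intact window is shown first, with the guide in capitals, because every allele is read against it.
Intact window: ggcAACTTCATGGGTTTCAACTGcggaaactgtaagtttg

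A selection of alleles with most reads or found in more than 1 mouse follows in the same window, with the lost bases in capitals. The lower case letters of each line, joined, are the repaired product.
Loss of bases 20 to 21: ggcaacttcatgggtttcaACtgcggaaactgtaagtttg
Loss of bases 19 to 20: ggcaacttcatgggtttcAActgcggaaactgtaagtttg
Loss of bases 19 to 21: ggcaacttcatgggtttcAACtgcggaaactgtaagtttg
Loss of bases 17 to 22: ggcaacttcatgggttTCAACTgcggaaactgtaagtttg
Loss of bases 19 to 24: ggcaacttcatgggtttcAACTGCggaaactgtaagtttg
Loss of bases 13 to 23: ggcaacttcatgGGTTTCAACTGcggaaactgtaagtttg
Loss of bases 15 to 26: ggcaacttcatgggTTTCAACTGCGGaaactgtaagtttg
Loss of bases 13 to 32: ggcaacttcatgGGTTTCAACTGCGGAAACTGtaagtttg
Loss of bases 8 to 31: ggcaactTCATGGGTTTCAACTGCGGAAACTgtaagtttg

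Deletion reads were rare in every tail and differed in number between the animals. Mouse 1 had 574 among 118665 reads, mouse 2 had 46 among 172680, and mouse 3 had 98 among 119605. The deletion share of reads was 0.484% in mouse 1 (exact 95% interval 0.445% to 0.525%), 0.0266% in mouse 2 (0.0195% to 0.0355%) and 0.0819% in mouse 3 (0.0665% to 0.0998%). The intervals did not overlap, and the mean was 0.197% ± 0.249 (SD, n = 3), or 0.0543% without mouse 1. All intervals and limits here cover counting error only, since PCR copies without molecular identifiers are not independent molecules.

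The reads of mouse 1 were concentrated in a few alleles. It held 28 deletion alleles, and the 12 that reached 10 reads had 96.2% of its deletion reads. Mouse 3 held 25 alleles, 2 of which reached 10 reads, and mouse 2 held 16, none of which did. Without mouse 1 the number of alleles fell from 54 to 35. For mice 1, 2 and 3 in turn, the top 3 alleles accounted for 60.3%, 39.1% and 38.8% of deletion reads. A single read is worth 0.174%, 2.17% and 1.02% of the deletion reads of mice 1, 2 and 3, so shares in mouse 2 move in coarse steps.

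The alleles were next grouped by flanking repeat, the number of bases by which a gap can be shifted without changing the product. Repeats cannot be read for gaps that run off the window, and this grouping leaves apart all 20 alleles with any gap at its edge. Of the other 34 alleles, 13 had no repeat, 11 had a repeat of 1 base and 10 had a repeat of 2 or more bases. Reads without a repeat were 54 of 511 in mouse 1, or 10.6% (8.04% to 13.6%). They were 16 of 39 in mouse 2, or 41.0% (25.6% to 57.9%), and 44 of 84 in mouse 3, or 52.4% (41.2% to 63.4%). Repeats of 1 base ran the other way, at 65.4% of reads in mouse 1 (61.1% to 69.5%), 28.2% in mouse 2 (15.0% to 44.9%) and 9.52% in mouse 3 (4.20% to 17.9%). Repeats of 2 or more bases lay closer together, at 24.1%, 30.8% and 38.1%, with intervals that overlapped in all 3 pairs of mice (20.4% to 28.0%, 17.02% to 47.6% and 27.7% to 49.3%). Mouse 1 thus lay below the intervals of the other mice for losses without a repeat and above them for repeats of 1 base. Of the 54 reads without a repeat in mouse 1, 13 came from an allele deposited with a pair of gaps, described further on. Its repeat class rests on the gap at the cut alone.

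Among alleles without a repeat, the loss of the base on each side of the cut (bases 20 to 21) led in every mouse. It was read 38 times in mouse 1, 8 times in mouse 2 and 15 times in mouse 3, which is 6.62%, 17.4% and 15.3% of their deletion reads. Over the mice its mean was 13.1% ± 5.71 of deletion reads (SD, n = 3), the highest mean of all 54 alleles. The neighbouring loss of bases 19 to 20, of the same length but wholly on the PAM-distal side, had no read in mouse 1, whereas mouse 2 had 5 and mouse 3 had 2. A count of 0 allows up to 0.00253% of the reads of mouse 1, against 0.0320% for the loss of bases 20 to 21 there. Longer losses without a repeat included bases 9 to 28 with 8 reads and bases 14 to 20 with 5 reads, both in mouse 3 alone.

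Both of the most frequent alleles of mouse 1 had a repeat of 1 base. The loss of bases 17 to 22, between a T at base 16 and a T at base 22, was the leading allele of mouse 1 with 154 reads. It was at 0 in mouse 2 and at 0 in mouse 3, which allows up to 0.00174% and 0.00251% of their reads against 0.130% (0.110% to 0.152%) in mouse 1. The loss of bases 19 to 21, with a repeated C, was read 129 times in mouse 1 and 6 times in mouse 3, and was at 0 in mouse 2. Also read in mouse 1 alone, among losses with a repeat of 1 base, were bases 19 to 24 with 21 reads, bases 10 to 21 with 11 reads and bases 20 to 35 with 6 reads. The loss of base 20, which cannot be told from a loss of base 19 since both are A, was read 12 times in mouse 1, 2 times in mouse 2 and at 0 in mouse 3. Mouse 2 had its own losses of this kind, with 4 reads for bases 14 to 23 and 3 reads for bases 10 to 24.

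Alleles with a repeat of 2 or more bases included 2 of the 3 that were found in all mice. The loss of bases 13 to 23, which leaves a single copy of the TG found at bases 11 to 12 and again at 22 to 23, was read 47 times in mouse 1, 2 times in mouse 2 and 15 times in mouse 3. Its share of deletion reads was 9.28% ± 5.56 (SD, n = 3). The loss of bases 15 to 26, between copies of GG at bases 13 to 14 and 25 to 26, was read 10, 5 and 3 times in mice 1, 2 and 3. The loss of bases 13 to 32 uses the same first TG with a further copy at bases 31 to 32, and it was read 63 times in mouse 1, at 0 in mouse 2 and once in mouse 3. The alleles that begin at base 13, of 11 and 20 bases, together held 110 of the 511 reads of mouse 1, 2 of 39 in mouse 2 and 16 of 84 in mouse 3.

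The window holds 4 pairs of direct repeats longer than 2 bases whose loss would touch the cut. They are shown with each repeat copy in capitals, since they are the longest repeats about the cut inside the window.
Repeat of 5 bases, loss of 15: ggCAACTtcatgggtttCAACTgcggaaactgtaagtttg
Repeat of 5 bases, loss of 9: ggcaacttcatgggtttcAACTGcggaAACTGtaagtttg
Repeat of 4 bases, loss of 24: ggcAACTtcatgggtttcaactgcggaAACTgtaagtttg
Repeat of 4 bases, loss of 22: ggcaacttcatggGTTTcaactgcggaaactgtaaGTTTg

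Products of all 4 long repeats were read, and 1 of them was among the leading alleles of mice 2 and 3. The loss of 24 bases (bases 8 to 31 in the deposited placement) was at 0 in mouse 1 and was read 4 times in mouse 2 and 7 times in mouse 3, or 8.70% and 7.14% of their deletion reads. The loss of 22 bases was read 3 times, in mouse 3 alone. The loss of 15 bases was read once in mouse 1 and once in mouse 3, and the loss of 9 bases once in mouse 1. That single read also carried at least 4 substitutions outside its gap. Repeats of 4 bases amounted to 0, 4 and 10 reads in mice 1, 2 and 3 and repeats of 5 bases to 2, 0 and 1 reads, against 121, 8 and 21 reads for repeats of 2 bases.

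The products seen were set against all products that the window allows, that is every distinct loss in 1 piece that touches the cut in at least 1 placement and reaches neither edge of the window when placed leftmost. Alleles with 2 gaps were not counted, nor was the loss of bases 2 to 36 with 2 reads in mouse 3, whose leftmost placement starts at the edge. Of 301 such products 31 were read. Among 224 products without a repeat 11 were read (4.91%), among 58 with a repeat of 1 base 10 were read (17.2%), and among 19 with a repeat of 2 or more bases 10 were read (52.6%). As shares of those totals, the same order held in mice 1 and 2. The products read numbered 4, 7 and 6 in mouse 1 and 3, 4 and 4 in mouse 2. Mouse 3 differed, with 9, 1 and 7. Leaving out reads with 4 or more substitutions brought the last class from 10 to 8 products and left the other classes at 11 and 10. These shares are descriptions, since the classes also differ in the lengths they contain.

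Length moved with the repeat class. The median loss without a repeat was 2 bases in mice 1 and 2 and 2.5 bases in mouse 3. With a repeat of 2 or more bases it was 20 bases in mouse 1 and 12 in mice 2 and 3. With a repeat of 1 base the medians were 6, 10 and 3 bases. Losses of 3 to 5 bases formed 25.1% of the deletion reads of mouse 1 and 12.2% of mouse 3 and were at 0 of 46 reads in mouse 2. Losses of 6 to 9 bases formed 31.2%, 6.52% and 7.14% of the deletion reads of mice 1, 2 and 3.

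Most deletions removed bases from both sides of the cut. With alleles at the window edge set apart, this held for 482 of 511 reads in mouse 1 (94.3%, interval 92.0% to 96.2%), 30 of 39 reads in mouse 2 (76.9%, 60.7% to 88.9%) and 67 of 84 reads in mouse 3 (79.8%, 69.6% to 87.7%). Losses confined to the PAM-distal side made up 2.54%, 17.9% and 11.9% of reads in mice 1, 2 and 3, from 4 alleles led by mean share by the loss of bases 19 to 20 and by reads in mouse 1 by the loss of base 20. Losses confined to the PAM-proximal side made up 3.13%, 5.13% and 8.33%, from 7 alleles, and the loss of base 21 led them by mean share with 1, 0 and 5 reads. In mouse 1, 13 of these 16 PAM-proximal reads came from an allele deposited with a pair of gaps, whose product, described further on, lacks bases on both sides of the cut, so that 3 of 511 reads there were otherwise PAM-proximal. The side class rests on placement for 6 of the 34 alleles, with 143, 1 and 7 reads in mice 1, 2 and 3. The loss of bases 19 to 21 is the main case, because the same product arises from a loss of bases 18 to 20, on the PAM-distal side alone.

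The reach of the losses away from the cut was also read for each end. The last lost base was 21, 22 or 23 in 74.8% of reads of mouse 1 (70.8% to 78.5%), 41.0% of mouse 2 (25.6% to 57.9%) and 53.6% of mouse 3 (42.4% to 64.5%). The first lost base was 17 to 20 in 70.8%, 38.5% and 38.1% of reads. In the deposited placement, losses with their first base in that range thus took a larger share in mouse 1. Its interval lay above those of the others (66.7% to 74.7%, against 23.4% to 55.4% and 27.7% to 49.3%). That order rests on placement. The loss of bases 17 to 22, with 154 reads in mouse 1 alone, is the same product as a loss of bases 16 to 21, which starts outside the range. No difference in reach between the mice is drawn from it. On the PAM-proximal side, the range of 21 to 23 leaves out losses that ended at base 20, with 2.54%, 17.9% and 11.9% of reads. Losses that ended at base 24 or beyond made up 22.7% (19.1% to 26.6%), 41.0% (25.6% to 57.9%) and 34.5% (24.5% to 45.7%). For these the interval of mouse 1 overlapped both others. Counted over all deletion reads in the deposited placement, base 12 was lost in 2.44%, 28.3% and 24.5% for mice 1, 2 and 3. The next base, 13, was lost in 21.6%, 32.6% and 43.9%. The low value of mouse 1 at base 12 rests on placement, because the losses of bases 13 to 23 and 13 to 32 can also be placed from base 11. Base 33 on the other side was lost at similar shares of 11.3%, 15.2% and 14.3%.

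In-frame losses took a larger share of deletion reads in mouse 1 than in the others, and the intervals did not overlap. The deleted length was a multiple of 3 in 384 of 574 deletion reads of mouse 1, or 66.9% (62.9% to 70.7%). It was a multiple of 3 in 17 of 46 reads of mouse 2, or 37.0% (23.2% to 52.5%), and in 28 of 98 reads of mouse 3, or 28.6% (19.9% to 38.6%). The mean was 44.1% ± 20.1 (SD, n = 3). Counted by allele instead of by read, in-frame losses were 11 of 28, 5 of 16 and 9 of 25 in mice 1, 2 and 3. The mean share was then 35.5%. Of the in-frame reads of mouse 1, 315 had a repeat of 1 base, mainly through the losses of bases 17 to 22, 19 to 21, 19 to 24 and 10 to 21, and none of its 54 reads without a repeat was in frame by the deposited length. In mouse 2 the in-frame reads with a repeat of 2 or more bases numbered 10, against 3 with a repeat of 1 base. In mouse 3 they numbered 11 and 6. Lengths that leave a remainder of 2 made up 26.7%, 32.6% and 46.9% of deletion reads, led by mean share by the loss of bases 20 to 21, although the losses of bases 13 to 32 and 13 to 23 had more reads in mouse 1. Lengths that leave a remainder of 1 made up 6.45%, 30.4% and 24.5%, led by mean share by the loss of bases 14 to 23.

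An allele of mouse 1 with 13 reads was deposited with a gap at bases 21 to 24 and a further gap at bases 27 to 31. In 12 of these reads the sequence matched the window up to base 19 and again from base 32, with the 3 bases TGG between them. It is shown because these bases, in capitals, stand in place of 12 lost ones.
Product with replaced bases: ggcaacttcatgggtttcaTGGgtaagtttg
The product is 9 bases shorter than the window, a multiple of 3, whereas the deposited deleted base number of 4 counts the gap at the cut alone. With all gaps of each allele counted, mice 1, 2 and 3 had 398, 17 and 29 in-frame reads. A stretch of 9 bases across the replaced ones is also found at window bases 7 to 15. The allele was at 0 in mice 2 and 3.

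Alleles with any gap at the edge of the window held 63, 7 and 14 deletion reads of mice 1, 2 and 3. They numbered 20, most of them read once. In some of those read once, the gap at the cut lay inside the window and only a further gap reached base 1. In mouse 1 the loss that starts at base 19 and has a deposited length of 27 bases, reaching position 45 on the window's numbering, had 37 reads. A loss of 84 bases that starts at base 18 had 17 reads there. The longest deletions were 85 bases in mouse 1 with 1 read, 48 bases in mouse 2 with 4 reads and 84 bases in mouse 3 with 5 reads. The 84-base losses of mice 1 and 3 ran in opposite directions. That of mouse 1 lost bases from 18 onward on the PAM-proximal side, whereas that of mouse 3 ended at base 21 and extended beyond the PAM-distal edge. Sequence beyond the window was not used here, so flanking repeats were not read where the gap at the cut ran off the window. Alleles with only a further gap at the edge were set apart with them.

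Few alleles were shared by all animals. Alleles found in 3 mice numbered 3, those of bases 20 to 21, 13 to 23 and 15 to 26, and they held 16.6%, 32.6% and 33.7% of the deletion reads of mice 1, 2 and 3. Their mean share was 27.6% ± 9.59 (SD, n = 3). A further 9 alleles were found in 2 mice and 42 in 1 mouse, 20 of these by a single read. Mouse 1 shared 4 of its 28 alleles with mouse 2, which is 25.0% of the 16 alleles of mouse 2. Mice 1 and 3 shared 8 alleles, or 28.6% and 32.0% of their lists. Mice 2 and 3 shared 6, of 16 and 25. The alleles common to mice 1 and 3 held 50.5% of the deletion reads of mouse 1 and 50.0% of mouse 3. Without mouse 1 the alleles common to the remaining pair held 49.1% of deletion reads on average, and without mouse 2 they held 50.3%. The number of deletion reads also differed between these mice, and its part in the sharing was not tested. For comparison, mice 1, 2 and 3 held 30, 32 and 28 of the 48 alleles with gaps away from the cut only. They held 28, 16 and 25 of the 54 deletion alleles, and 64, 52 and 54 of all 111 alleles. Low sharing was thus not set against a count of shared alleles over the whole series.

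Gaps inside the window that did not touch the cut gave the background in the same libraries. All reads with gaps away from the cut only, of any kind and also at the window edge, numbered 85, 89 and 68 in mice 1, 2 and 3. Deletion reads at the cut numbered 574, 46 and 98. The counts below cover only gaps inside the window and so are smaller than those totals. Losses of 1 base away from the cut were read 16, 24 and 28 times in mice 1, 2 and 3, most often at base 14 with 7, 10 and 7 reads and at base 39 with 4, 4 and 9 reads. At the cut they were read 13, 2 and 5 times. In mice 2 and 3, neither base beside the cut was therefore lost alone more often than base 14 or base 39. Those positions are not like for like, however. Base 14 ends a run of 3 G and base 39 a run of 3 T, so each count covers losses that cannot be told apart. Base 21 is a single C. Single C bases away from the cut were lost at most 2 times in a mouse (base 18 in mouse 1), against 5 times for base 21 in mouse 3. Losses of 2 or more bases away from the cut were read 3, 1 and 1 times, against 485, 36 and 78 times for losses of that size that touched it. Their share of reads at the cut was 0.409% (0.373% to 0.447%), 0.0208% (0.0146% to 0.0289%) and 0.0652% (0.0516% to 0.0814%). These shares lay above the intervals of the background in each mouse (0.000521% to 0.00739%, 1.47e-05% to 0.00323% and 2.12e-05% to 0.00466%). This is a description, since gaps away from the cut cannot be as long as the longest at it, and the rule chose alleles by their gaps. At equal lengths, losses of 2 bases were read 0, 1 and 0 times away from the cut and 38, 13 and 17 times at it. Losses of 3 to 5 bases were read 2, 0 and 1 times away and 131, 0 and 12 times at it. Just outside the rule lay a loss of bases 16 to 18 with 2 reads in mouse 1 and of bases 17 to 19 with 1 read in mouse 3. Just inside it lay the losses of base 20 and of base 21.

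Substitutions had no part in choosing the alleles and were therefore compared with gap-free reads of the same mouse at the same positions. Deletion reads carried substitutions at 1.05%, 2.34% and 2.28% of their aligned bases in mice 1, 2 and 3. Gap-free reads weighted to the same positions gave 0.231%, 0.265% and 0.262%. Deletion reads were higher in 3 of 3 mice, by 1.64 percentage points ± 0.710 (SD, n = 3). Flipping the sign of each mouse's difference gave an exact two-sided p = 0.25, the smallest possible for 3 animals, and p = 0.5 after Benjamini-Hochberg adjustment over both tests made here. Reads with 4 or more substitutions, of which there were 5, 2 and 3, carried much of it. Without them the difference was 0.639, 0.580 and 1.21 percentage points, a mean of 0.811.

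Single substitutions recurred on particular deletion alleles of mouse 1. Positions here are window bases, with the reference base first. C6A was found on 12 of 154 reads that lost bases 17 to 22, or 7.79% (4.09% to 13.2%), against 0.00680% of gap-free reads. A27C was found on 11 of 21 reads that lost bases 19 to 24 and on 3 of 154 that lost bases 17 to 22, against 0.0170% of gap-free reads. G40T and C9A were found on 12 and 10 of the 129 reads that lost bases 19 to 21, against 0.0807% and 0.0153% of gap-free reads. T8G was found on 12 of 569 deletion reads of mouse 1 that kept base 8, and 8 of these had lost bases 13 to 23 or 13 to 32. No substitution in the window was carried by 76.8%, 82.6% and 70.4% of the deletion reads of mice 1, 2 and 3.

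A19C, carried by 5.33%, 5.20% and 5.45% of the gap-free reads of mice 1, 2 and 3, could be followed in deletion reads that kept base 19. It was found in 1 of 75 such reads in mouse 1, 1 of 14 in mouse 2 and 3 of 27 in mouse 3. The difference from gap-free reads was -4.00, 1.94 and 5.67 percentage points, which averages to 1.20 ± 4.87 (SD, n = 3). The same exact test gave a two-sided p = 0.75 before and p = 0.75 after adjustment. The 3 reads of mouse 3 were all reads of a single allele, the loss of bases 20 to 22, and without that mouse the mean was -1.03. The same sequence results if bases 19, 20 and 22 are lost and the C at base 21 is kept, with no substitution. Which of these occurred was not tested. With that allele left out, A19C was found in 2 of 113 reads over the 3 mice, or 1.77% (0.215% to 6.25%). Among alleles with at least 10 reads in a mouse, A19C was at 0 of 78 reads that kept base 19, which allows a share of up to 3.85% by 3 counts and up to 4.62% by the exact interval. Over all 116 such reads the share was 4.31% (1.41% to 9.77%), an interval that holds the gap-free values, so a difference was not detectable at this depth.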

How the data were processed

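Tail genomic DNA of 3 mice was amplified with Tyr primers and made into Illumina libraries, per the labels' protocols. Each deposited table lists aligned alleles with a raw read count and a percent of the library's reads; the deposited percent equalled the count over the total in all 145 deletion lines. The submitters' processing notes name cutadapt and mm10; the aligner, allele caller and filters are not given in the sources used here. The deposited deleted base number equalled the gap at the cut in 128 of 128 lines with that gap inside the window.

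Gaps, repeats and placements were computed from the deposited alignments in Python 3.11.15 with pandas 2.3.3, numpy 2.4.6 and SciPy 1.17.1, after a check on simulated data. Intervals are exact Clopper-Pearson at 95%, and a count of 0 was given a limit of 3 counts. Alleles were named by a rule: at least 10 reads in a mouse, presence in all 3 mice, leading a class, or greatest length; a few others were named after their values were seen. Members and lists were chosen with earlier results of these data known. Mice are separate animals per the labels. Alternatives covered minimum reads, window-edge alleles, placement, merging, weighting and leaving out each mouse.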

Additional observations from a re-analysis of the deposited data

How the results depend on the processing

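The deletion share, the share with 2 or more repeated bases and the in-frame share moved by less than the SD between mice under each alternative run, except that requiring 3 or more repeated bases brought the second to 7.91%. For the deletion share no decrease could pass that limit, because its SD of 0.249 is larger than its mean of 0.197%. Without mouse 1 the deletion share was 0.0543%. The SD of the in-frame share was also wide, at 20.1 points. From its main value of 44.1% that share went down to 32.8% without mouse 1 and up to 59.7% with pooled reads. The share of losses on both sides of the cut was 97.5% among alleles with at least 10 reads (mice 1 and 3 only, since mouse 2 had none), 67.3% with each allele counted a single time and 72.7% with gaps at their leftmost placement. The 54 alleles became 34 without window-edge alleles, 32 with at least 2 reads, 12 with at least 10 reads and 131 with substitution variants kept apart, and 35 to 45 when a mouse was left out, 35 being without mouse 1. The 42 alleles of a single mouse became 22, 25 and 10 under the first 3 of these settings. The share in alleles common to all mice was 27.8% to 50.3% over pairs of mice, 49.1% without mouse 1 and 50.3% without mouse 2. The 10 products with 2 or more repeated bases became 6 with at least 2 reads, 3 with at least 10 reads and 4 with 3 or more repeated bases. The substitution difference stayed positive throughout. The A19C difference turned to -0.863 without window-edge alleles, -0.999 with pooled reads and -5.39 among alleles with at least 10 reads, and ranged from -1.03 to 3.80 when a mouse was left out. The settings that leave out reads with 4 or more substitutions, merge by the gap at the cut alone, or limit A19C to alleles with at least 10 reads were chosen after seeing the data. Leaving out a mouse was not applied to the alleles of a single mouse, and no share common to all mice exists at 10 reads. Precision within deletion reads was lowest in mouse 2, which had 46 of them among the highest number of reads in all.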

Other observations

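A few deletion reads were far from the Tyr window. Reads with 4 or more substitutions outside the gap numbered 5 in mouse 1, 2 in mouse 2 and 3 in mouse 3, and leaving them out brought the 54 deletion alleles to 46 and the alleles of a single mouse from 42 to 35. Their origin was not tested. In mouse 3, all 3 reads of the loss that starts at base 17 with a deposited length of 34 bases carried T15C and T16C.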
